A study of Drosophila melanogaster with 4 samples.

Results

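H3K9me2-enriched regions in the centromere-proximal ends of the left arms of chromosomes 2 and 3 are described here for Oregon-R Drosophila melanogaster larvae. A region counted as a member when its end lay in the last 3 Mb of the release 5 arm sequence, which is 20011545 to 23011544 on 2L and 21543558 to 24543557 on 3L. The choice rests on position alone and used no enrichment value. Replicate 1 held 219 such regions of 3667 in its list, with 129 on 2L and 90 on 3L. Replicate 2 held 302 of 4728, with 176 on 2L and 126 on 3L. A combined list, which the authors made from the replicate set, held 319 of 5614, with 197 on 2L and 122 on 3L. No region was named as depleted on either arm, and no member began distal of the 3 Mb limit.

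The study mapped H3K9me2 by chromatin immunoprecipitation and sequencing (ChIP-seq) in nuclei from wild type larvae at the third instar, with 1 antibody, labelled H3K9me2 antibody2. There were 2 ChIP libraries, and each was called against the input library of its own replicate number, where input is chromatin sequenced without immunoprecipitation. All 4 libraries share strain, genotype and stage, so there is no treated or mutant group, and the comparisons run between stretches of chromosome within each library. The region lists carry no read counts, so sequencing depth is unknown. Tissues were homogenised, so a lower enrichment in every nucleus and an enrichment in fewer nuclei cannot be told apart. The labels do not say that the replicates came from separate larval collections, and the spread between them may be technical.

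Dimethylation of this lysine in the tail of histone H3 is laid down by dedicated methyltransferases, among them eggless, and is bound by the heterochromatin protein HP1a. In flies it marks the repeat-rich chromatin next to the centromeres, where transposon remnants and satellite sequence are kept compact. Pericentric chromatin also holds genes that are transcribed there, such as light (lt) and concertina (cta) on 2L and verthandi (vtd), Dbp80 and RpL15 on 3L. The junction between the gene-rich arm and this chromatin is known to differ between arms. The questions here are where it lies on 2L and 3L, how continuous the mark is on its proximal side, and what remains on its distal side.

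Both arm ends carried a dense H3K9me2 domain that ran to the proximal end or close to it, and the arms differed in how long it was and in what lay beyond it. Enriched regions covered 40.0% of the 3 Mb of 2L in replicate 1 and 39.8% in replicate 2, a mean of 39.9% ± 0.192 (SD, n = 2). On 3L they covered 49.2% and 48.3%, a mean of 48.8% ± 0.657 (SD, n = 2). The arms did not overlap between libraries. Nearest the proximal end the difference was small: 81.2% ± 1.63 of the first 1 Mb was covered on 2L, and 89.3% ± 2.75 on 3L. In the second 1 Mb 3L had 53.7% ± 0.186 and 2L had 21.6% ± 1.66. In the most distal 1 Mb the order was the opposite, where 2L had 17.0% ± 0.610 and 3L had 3.31% ± 0.590 (SD, n = 2). The rest of each arm was covered over 3.00% and 3.52% on 2L and over 2.94% and 3.64% on 3L in replicates 1 and 2. On 3L the most distal 1 Mb was therefore near the level of the arm as a whole, and on 2L it was above it in both libraries. Most of the 2L coverage there lay in 1 stretch described below, 20097055 to 20268899. It held 133.6 kb in replicate 1 and 122.8 kb in replicate 2. With 2 libraries a two-sided sign-flip permutation test cannot give a p below 0.5, so differences are read against the spread between the libraries.

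**Figure D1:**
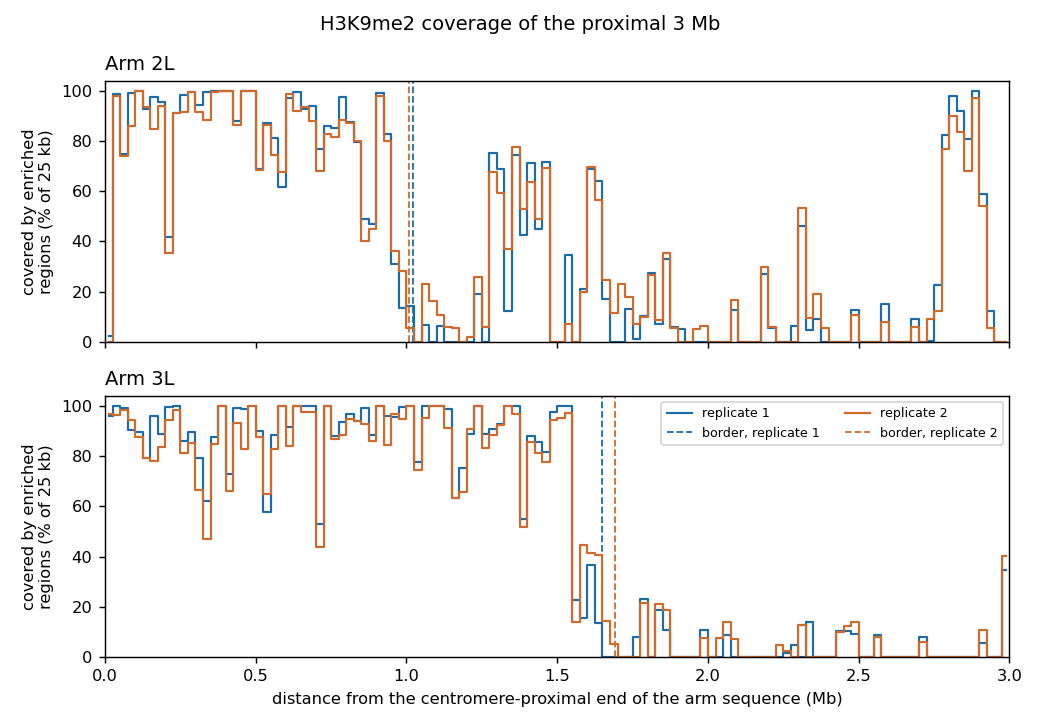
Share of each 25 kb window covered by enriched regions (y axis, percent) against the distance from the centromere-proximal end of the arm sequence (x axis, Mb), for 2L (upper panel) and 3L (lower panel). Solid lines are the replicates and dashed lines the joined borders, near 1.01 Mb on 2L and 1.67 Mb on 3L on average; beyond the border 2L rises again and 3L stays low.

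Counted in windows of 100 kb, 11 of the 30 windows of 2L were covered by at least 50% in replicate 1 and 12 in replicate 2. On 3L it was 16 of 30 in each. Over all large arms 4.63% and 4.37% of windows reached that level in replicates 1 and 2, and 6.31% in the combined list, where 2L had 14 and 3L had 16. Uncovered windows numbered 3 on 3L in each library and 0 on 2L. Between 10% and 50% lay 2 windows of 3L and 9 of 2L in each replicate. In the combined list it was 7 on 3L and 8 on 2L, so this difference between the arms was seen in the replicate lists and was small in the combined one.

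The border of the domain was placed where the chain of regions, followed outward from the most proximal one, first met an uncovered stretch of more than 25 kb. On 2L this border lay at 21990501 in replicate 1 and 22004229 in replicate 2, which are 13.7 kb apart. On 3L it lay at 22894658 and 22851805, which are 42.9 kb apart. Measured to the end of the arm sequence, the 2L domain was 1014 kb ± 9.71 long and the 3L domain 1670.3 kb ± 30.3 (SD, n = 2). The 3L domain was longer by 656.1 kb ± 40.0 (SD, n = 2), a difference well beyond the spread between the libraries. The combined list placed the border at 21876880 on 2L, 114 kb outside that of replicate 1, and at 22845626 on 3L, 6.18 kb outside that of replicate 2. The regions that set these borders were short and weak. They measured 2175 bp with a score of 0.632 on 2L in replicate 1 and 1387 bp with 0.547 in replicate 2. On 3L they measured 3356 bp with 0.667 and 1304 bp with 0.654. The score is the authors' own enrichment value for a region, on a scale that the sources do not state, and it is used here only to describe and rank regions within a list. When regions were joined over at most 10 kb, the chain ended at the first larger gap, and the domain was 0.209 Mb on 2L and 0.711 Mb on 3L, still longer on 3L.

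In the replicate lists 3L coverage fell in a single step, and a sparse fringe followed. The combined list fell less sharply, with 52.4%, 78.2%, 76.1% and 51.1% in the 25 kb windows from 1550 kb to 1650 kb from the end. On 3L the window from 22993558 to 23018557 was covered over 100% in replicate 1 and 97.2% in replicate 2. The next 25 kb outward, from 22968558 to 22993557, was covered over 18.2% ± 6.02 (SD, n = 2). The 3 windows beyond held between 13.4% and 44.7%, and from 1700 kb to 1750 kb from the end no region was present in either replicate. On 2L the decline took more steps and was broken by gaps. The window from 22111545 to 22136544 was covered over 47.1% and 45.1%, and the next one outward over 99.2% and 98.0%. Beyond it the mean was 81.4% ± 1.99 (SD, n = 2), and the next windows held 31.1% and 36.1%, then 13.3% and 28.2%. The window from 21961545 to 21986544 was empty in both.

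Regions in the upper part of each list by score placed the edge more tightly. With the 50% of each list that scored highest, the 2L chain ended at 22168925 in replicate 1 and 22169003 in replicate 2, a length of 842.6 kb ± 0.0552 (SD, n = 2). On 3L it ended at 22992207 and 23003540, a length of 1546 kb ± 8.01 (SD, n = 2). From this edge to the outer border lay a fringe of 178.4 kb and 164.8 kb on 2L and of 97.5 kb and 151.7 kb on 3L in replicates 1 and 2. On 2L it held the densely covered windows between 900 kb and 950 kb from the end, whose regions chained on only when lower scores were kept. The step in coverage at the outer border, taken over 100 kb on either side, was 39.2 points ± 4.30 on 2L and 23.8 points ± 0.984 on 3L. That order gives no ranking of the arms, since with regions of at least 2000 bp the steps were 47.3 and 63.6 points.

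**Figure D2:**
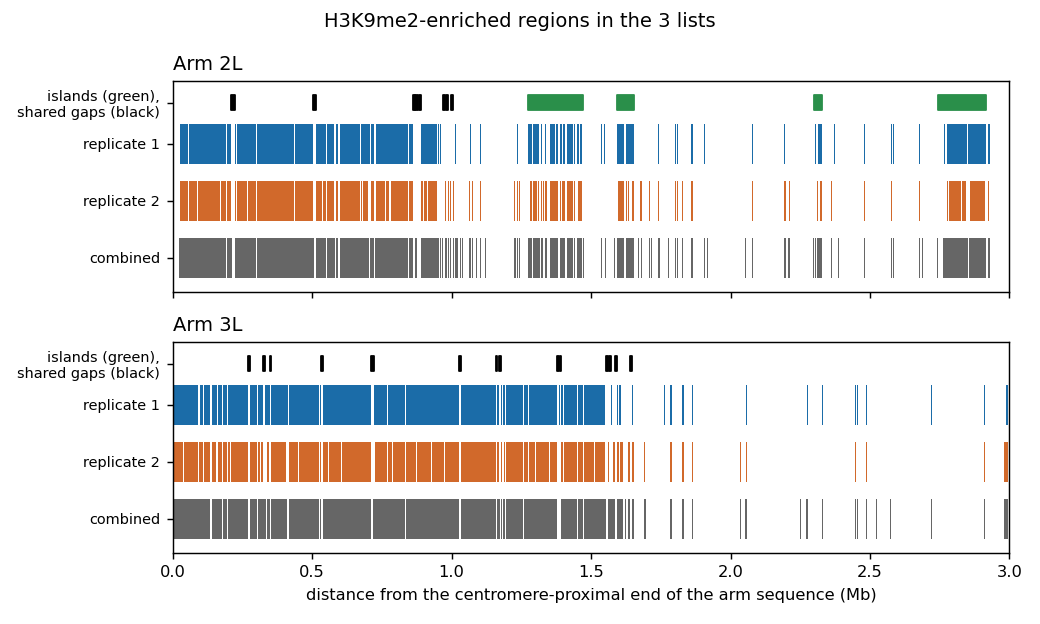
Map of the enriched regions (bars, to scale) in replicate 1, replicate 2 and the combined list against the distance from the proximal end (x axis, Mb), for 2L (upper panel) and 3L (lower panel). Green bars mark the 4 islands of 2L, black bars the 8 shared gaps of 2L and the 14 of 3L, and no island met the rule on 3L.

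Within its domain each arm was covered over most of its length. Coverage was 81.0% and 79.6% on 2L and 86.8% and 82.5% on 3L in replicates 1 and 2. Of all covered bases of the 3 Mb, the 2L domain held 68.0% ± 1.16 and the 3L domain 96.5% ± 0.420 (SD, n = 2). In the stretch that lay in the domain of both libraries, both covered 77.2% of the bases on 2L and 82.3% on 3L, and neither covered 15.9% and 11.3%. A few long regions carried much of the domain: on 2L the 10 longest of 52 regions in replicate 1 and the 11 longest of 80 in replicate 2 held 50% of its covered bases. On 3L it took 12 of 73 and 18 of 106. Median region length inside the domain was 9084.5 bp and 5002 bp on 2L and 11855 bp and 9156 bp on 3L, against 2315 bp and 2400.5 bp outside it on 2L and 2218 bp and 2061.5 bp on 3L.

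The longest combined region of 2L ran from 22576372 to 22669930, 93.6 kb with a score of 1.84. It was covered over 99.97% by replicate 1, as 1 region, and over 99.5% by replicate 2, as 3 regions. The next measured 79.7 kb (22332922 to 22412618, score 1.89) and 66.9 kb (22506686 to 22573610, score 1.97). On 3L the longest were 126.0 kb (23384004 to 23509956), 104.1 kb (23832440 to 23936528) and 79.5 kb (24451396 to 24530858), with scores of 2.12, 1.92 and 1.88. Each of these 6 regions was covered over at least 94.0% by each replicate. Replicate 2 had the more broken calls: of its regions inside the domain 6.25% on 2L and 2.83% on 3L overlapped more than 1 region of replicate 1, whereas 32.7% and 30.1% of those of replicate 1 overlapped more than 1 of replicate 2.

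The very end of the arm differed. On 3L the last region ran past the stated end of the sequence by 809 bp in replicate 1 and 529 bp in replicate 2 and was trimmed to it. On 2L the last region ended 24.4 kb and 25.5 kb before the end, at 22987144 and 22986086. In the combined list a single short region lay in that stretch and ended 3482 bp before the end of the sequence. Whether reads could be placed there was not tested.

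The libraries shared most of the longer interruptions of the domains. Inside the domain 2L had 10 uncovered gaps of at least 5 kb in each replicate, and 3L had 16 and 19. The combined list had 13 on 2L and 10 on 3L, so the order of the counts depends on the list. Stretches of at least 5 kb that neither library covered numbered 8 on 2L, 64.7 kb in all, and 14 on 3L, 91.8 kb in all. Per Mb of shared domain that is 7.94 on 2L and 8.49 on 3L. Their placing differed: 6 of the 8 on 2L, but 4 of the 14 on 3L, fell in the distal 200 kb of the domain. The longest on 2L measured 14.3 kb (22787386 to 22801657), followed by 9.13 kb (22005616 to 22014745) and 7.79 kb (22133566 to 22141350). On 3L the longest measured 11.1 kb (23821305 to 23832451), followed by 7.96 kb (22982341 to 22990301) and 6.86 kb (22973225 to 22980082), and both of the last lay in a single 17.1 kb gap of replicate 1.

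The edges of these gaps coincided closely in several cases. Of the 16 edges on 2L, 8 differed by at most 300 bp between the libraries, and of the 28 on 3L, 14 did. The 3L gap from 23366252 to 23371946 had its distal edges 2 bp apart and its proximal edges 19 bp apart. At the 2L gap from 22499084 to 22506811 the edges were 175 bp and 2 bp apart. At the other extreme, the outermost 3L gap began within 472 bp in the libraries but ended 16073 bp apart, where replicate 2 alone had regions of the fringe. In the combined list 4 of the 8 gaps on 2L and 8 of the 14 on 3L still held an uncovered stretch of at least 5 kb. Assembly gaps and repeats that reads cannot be placed in were not examined, since no sequence of this release was used, and their part in the gaps was not tested.

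**Figure D3:**
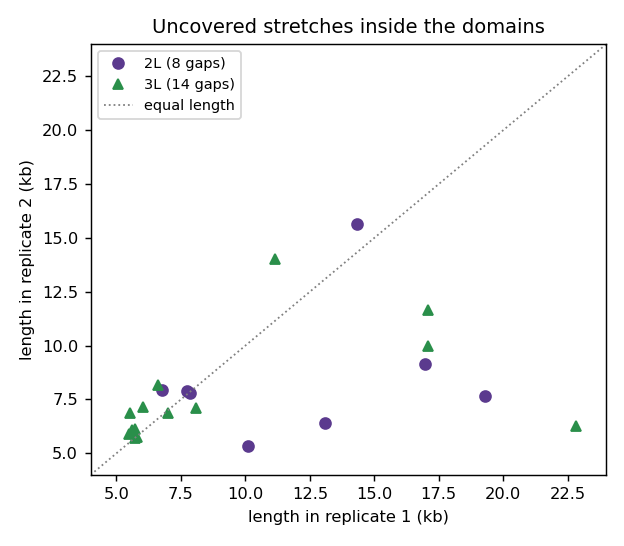
Length of each uncovered stretch in replicate 1 (x axis, kb) against its length in replicate 2 (y axis, kb), for stretches inside the domain that both libraries left uncovered over at least 5 kb, with 8 on 2L (circles) and 14 on 3L (triangles). Most lie near the line of equal length, and those far to the right of it, up to 22.8 kb against 6.28 kb, are gaps of the outer fringe that replicate 2 interrupted.

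Scores inside the domain stood above those outside it, and they fell off differently along the arms. In replicate 1 the median score was 1.49 inside and 0.693 outside on 2L, and 1.84 inside and 0.684 outside on 3L. In replicate 2 it was 1.06 and 0.652 on 2L, and 1.45 and 0.648 on 3L. As a percentile of its own list, the median domain region stood at 56.7 and 55.1 on 2L and at 63.6 and 63.4 on 3L. By definition 50.0% of each list scores above its own median. On 2L 31 of 52 domain regions of replicate 1 and 47 of 80 of replicate 2 did so (59.6% and 58.8%), which is not far from that level. On 3L it was 58 of 73 and 79 of 106 (79.5% and 74.5%). Outside the domain it was 17 of 77 and 19 of 96 on 2L, and 2 of 17 and 3 of 20 on 3L.

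On 3L the score kept its level up to the edge of the dense domain. In steps of 0.5 Mb from the proximal end, the medians in replicate 1 were 1.98, 2.06 and 1.88, and then 0.667. In replicate 2 they were 1.63, 1.49 and 1.47, and then 0.619. On 2L they had already fallen in the second step, from 1.84 to 0.963 and then 0.694 in replicate 1, and from 1.49 to 0.925 and then 0.632 in replicate 2. Region length followed, with medians of 23279 bp and then 7022.5 bp in the first steps of 2L in replicate 1, and 8465 bp and then 4395 bp in replicate 2. The distal part of the 2L domain was thus made of shorter and lower-scoring regions than its proximal part in both libraries. It also held 6 of the 8 shared gaps within 200 kb of its border.

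The levels next to the arm end came near those of the separately assembled heterochromatic sequences of the same arms. The median score of 2LHet was 2.09 over 17 regions in replicate 1 and 1.62 over 31 in replicate 2, against 1.84 and 1.49 in the first 0.5 Mb of 2L. For 3LHet it was 2.04 over 117 regions and 1.69 over 174, against 1.98 and 1.63 in the first 0.5 Mb of 3L.

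**Figure D4:**
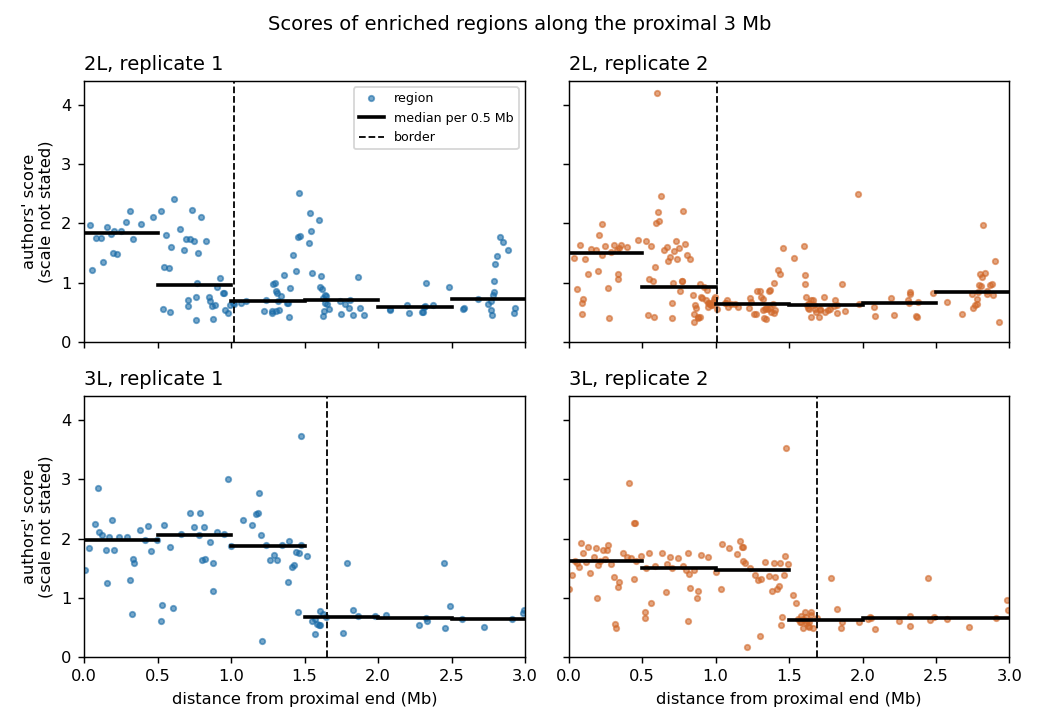
Authors' score of each enriched region (y axis, scale not stated) against the distance of its middle from the proximal end (x axis, Mb), for 2L (upper row) and 3L (lower row) in replicate 1 (left) and replicate 2 (right). Black bars are medians per 0.5 Mb and dashed lines the joined borders; the medians of replicate 1 stay between 1.88 and 2.06 over the first 1.5 Mb of 3L and drop from 1.84 to 0.963 within the first 1 Mb of 2L.

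The regions with the highest scores were short on 3L but not on 2L in replicate 1, where the 3 highest measured 9.26 kb, 24.8 kb and 16.2 kb. On 3L the highest in both libraries was the same place, 23066345 to 23067987 with a score of 3.73 in replicate 1 and 23066461 to 23067966 with 3.53 in replicate 2. It ranked 31st of 3667 and 69th of 4728, about 1476 kb from the proximal end and within 80 kb of the high-scoring edge. On 2L the libraries differed. The highest of replicate 1 was 21542633 to 21551896, 9.26 kb with a score of 2.51, and lay outside the domain at the outer end of an island described below. The highest of replicate 2 was 22410712 to 22412322, 1.61 kb with a score of 4.21, and replicate 1 covered it over 10.6%.

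Outside the domain 2L held large H3K9me2 islands and 3L held none by the same rule. An island was a stretch of regions joined over at most 10 kb in which each library covered at least 10 kb. On 2L there were 4, and they held 81.2% of the covered bases outside the domain in replicate 1 and 75.5% in replicate 2. The sequence outside the domain and between the islands was covered over 5.46% ± 1.18 on 2L, and 3L had 3.86% ± 0.417 (SD, n = 2). The 3L part had 17 regions in replicate 1 and 20 in replicate 2, none longer than 6.19 kb. Its best stretch, 21548594 to 21561520, lay at the 3 Mb limit with 8.67 kb and 10.1 kb covered. Replicate 2 alone would count it as an island. The combined list gave 9 islands on 2L and 3 on 3L.

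The island nearest the 2L domain spanned 195.4 kb, from 21540688 to 21736098, and lay 254.4 kb outside the border of replicate 1. Replicate 1 covered it over 59.1% with 20 regions and replicate 2 over 60.9% with 22. The next outward spanned 58.5 kb, from 21358386 to 21416837, with 69.9% and 65.3% covered by 11 and 10 regions. A small one of 29.9 kb, from 20684182 to 20714074, was covered over 47.6% and 52.4%, and was lost when 20 kb had to be covered. The outermost spanned 171.8 kb, from 20097055 to 20268899, with 77.7% and 71.5% covered by 12 and 18 regions. It lay 1722 kb outside that border and held the 2 longest regions outside it, 58.0 kb (20097278 to 20155326, score 1.39) and 38.7 kb (20160708 to 20199380, score 1.60). The third longest measured 21.0 kb (21697878 to 21718892, score 0.825) in the innermost island. Median scores in the 4 islands were between 0.595 and 0.932 in replicate 1 and between 0.603 and 0.899 in replicate 2, below the median of each list, which was 1.09 and 0.917. In the combined list 3 of the 4 island medians, 0.565, 0.544 and 0.528, lay above the list median of 0.522, and the other, 0.473, lay below it. The place of the islands relative to their list thus depends on the list. The highest single scores in them were 2.51 in replicate 1 and 1.98 in replicate 2.

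On 3L the longest combined regions outside the domain measured 7.39 kb (21548732 to 21556122, score 0.694), 6.21 kb (22753842 to 22760048, score 1.33) and 5.80 kb (22092740 to 22098542, score 1.51). All were present in both replicates. The longest stretches that neither library covered were also longer on 3L: 187.4 kb from 21633689 to 21821074, 160.0 kb from 22294771 to 22454747 and 147.2 kb from 21823041 to 21970256. The longest on 2L was 104.4 kb, from 20821643 to 20926056, and the next measured 101.5 kb each.

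The 2 innermost islands of 2L faced each other across 123.9 kb, from 21416838 to 21540687, a stretch singled out after its values were seen. Replicate 1 covered 7.00% of it with 4 regions and replicate 2 covered 1.40% with 1 region. The combined list had 13 regions there, 17.3% of the stretch. Scores were high for so little coverage, with a median of 1.77 in replicate 1, 1.42 for the single region of replicate 2 and 1.83 in the combined list. No gene was assigned to this stretch. As background, proximal 2L carries the tandem repeats of the replication-dependent histone genes, of which the RefSeq gene table of release 6 lists 111 on 2L, and where they lie relative to the islands was not determined here.

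The libraries located most members alike, and the share of regions that overlapped was highest inside the domains. An overlap of 1 bp or more with the other list was found for 83.7% of the 2L members of replicate 1 and 80.1% of those of replicate 2, close to the 81.7% and 79.7% over all regions of the lists. On 3L it was 86.7% and 84.9%. Inside the domain the shares were 92.3% and 91.3% on 2L and 89.0% and 88.7% on 3L, and outside it 77.9% and 70.8% on 2L and 13 of 17 and 13 of 20 on 3L. An overlap of 1 bp is met more easily inside. The replicate lists covered between 79.6% and 86.8% of the domains, but between 3.46% and 19.7% outside them. This contrast therefore cannot show that agreement was better inside. Members found in 1 list alone were short, with a median length of 1560 bp and 1621 bp on 2L and 1707 bp and 1694 bp on 3L. Counted in bases, the shared part of the union (Jaccard index) was 0.836 for the 3 Mb of 2L and 0.910 for those of 3L. It was 0.527 and 0.533 on the rest of these arms and 0.762 over all sequences. The proximal 3 Mb of 2R, X and 3R had 0.900, 0.624 and 0.602. Where more of the sequence is covered, this index is also higher by coverage alone, so it cannot show better agreement here either. When 50% of both regions had to overlap, 69.0% and 50.6% of the 2L members and 74.4% and 53.2% of the 3L members still counted as shared.

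The combined list added short regions on both arms. Of its 197 members on 2L 57 overlapped neither replicate (28.9%), and of 122 on 3L 28 did (23.0%), against 33.2% over the whole combined list. Their median length was 1305 bp on 2L and 1383 bp on 3L, and their median score 0.412 and 0.422. Some of them nonetheless had the highest scores of the arm. The 3 highest of 2L were 22417390 to 22419246 (score 3.77), 21536664 to 21538734 (3.70) and 22791022 to 22792022 (3.45), and neither replicate covered any of them. The 3 highest of 3L were 22806878 to 22807982 (3.62), 24194156 to 24195542 (2.77) and 23350854 to 23360956 (2.47), of which the last was in both replicates and the others in neither. Among members in the top 10% of the combined list by score, 11 of 12 on 2L and 3 of 6 on 3L overlapped neither replicate, against 23.0% of such regions over the whole list. This count was chosen after the values were seen. Of the 11 on 2L, 6 lay between the 2 innermost islands and 2 in shared gaps. The top of the combined score list is thus no guide to regions that the replicates share on 2L.

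Set beside the other large arms, 2L and 3L lay between 2R and the remaining arms in proximal coverage. Coverage of the 3 Mb next to the proximal end was 55.2% ± 0.0138 for 2R, 29.9% ± 0.00910 for X and 7.35% ± 0.595 for 3R (SD, n = 2). 2L lay 15.3 points ± 0.205 below 2R and 10.0 points ± 0.201 above X, and 3L lay 6.42 points ± 0.671 below 2R and 18.9 points ± 0.666 above X. All these differences had the same sign in both libraries. In the combined list X reached 48.9%, above the 48.4% of 2L, so the order of 2L and X depends on the list. The joined domain measured 1610.3 kb ± 19.1 on 2R, close to that of 3L, while X had 185.9 kb ± 10.0 (SD, n = 2). The median score of all members was 1.66 and 1.33 on 3L in replicates 1 and 2, 1.61 and 1.27 on 2R, 0.820 and 0.747 on 2L, and 0.828 and 0.783 on X. By this measure 3L was close to 2R and 2L close to X.

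**Figure D5:**
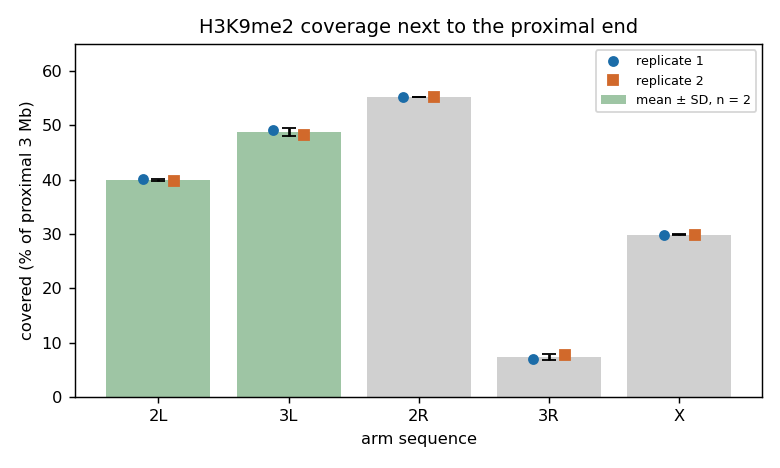
Share of the proximal 3 Mb covered by enriched regions (y axis, percent) on each large arm sequence (x axis). Bars are means of 2 libraries with the SD as error bars, and points are the libraries; 2L (39.9%) and 3L (48.8%) lie between X (29.9%) and 2R (55.2%).

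At the distal limit of the 3 Mb the nearest regions were weak on both sides. On 2L the innermost region left out scored 0.512 in replicate 1 and 0.617 in replicate 2, and the outermost member 0.578 and 0.338. On 3L the values were 0.715 and 0.720 for the region left out and 0.797 and 0.791 for the member, which lay 5.69 kb and 5.04 kb inside the limit.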

How the data were processed

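The submitters' processing notes name Bowtie 0.12.7 as a tool for these ChIP-seq reads, and coordinates are FlyBase release 5, per the file headers. The deposited values are 1 score per region by the authors; not given in the sources used here are its scale, the region caller, the thresholds and how the libraries were combined. The 3 lists were kept apart and regions were trimmed to the sequence ends stated in the headers. Interval arithmetic used Python 3.11.15 with numpy 2.4.6, scipy 1.17.1 and pandas 2.3.3, and was tested on simulated lists with planted borders, gaps and islands. Errors are the SD of the 2 replicate lists (n = 2), without tests, and depth is unknown. Borders joined regions over at most 25 kb, gaps had at least 5 kb, and islands joined over 10 kb with 10 kb covered in each library. Regions named are, per arm of the combined list, the 3 longest inside and outside the domain, the 3 highest scores, the border regions, the 3 longest shared gaps and all islands; any others named were chosen after their values were seen. Members, rules and lists were chosen with earlier results of these data known. The 2 input libraries entered only through the authors' calling. No genome or annotation of release 5 was used, so no sequence is shown.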

Additional observations from a re-analysis of the deposited data

How the results depend on the processing

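As a mean of the replicates, the 3L domain was longer than the 2L domain under each joining distance, window and filter run. In the combined list it was longer with joining over 25 kb, with windows of 100 kb and with the 50% that scored highest. 2L also had more islands than 3L under each list, joining distance and minimum run for islands. Values that moved are given as 2L and then 3L. The combined list gave 48.4% and 54.0% covered, a joined domain of 1.13 Mb on 2L, steps of 13.8 and 32.6 points, 10 gaps on 3L, 9 and 3 islands and 56.8% and 68.3% of domain regions above the list median, with 61.5%, 12.6% and 48.9% covered on 2R, 3R and X. The 50% with the highest scores gave 57 and 71 regions, 29.9% and 45.7% covered, domains of 0.843 Mb and 1.55 Mb, steps of 65.8 and 88.9 points and shares found in the other list of 95.0% for replicate 1 on 3L and 87.9% and 97.6% for replicate 2, with 50.7%, 1.59% and 13.9% covered on 2R, 3R and X. Regions of at least 2000 bp gave 37.5% and 47.5% covered, domains of 0.908 Mb and 1.58 Mb, steps of 47.3 and 63.6 points, 57.9% and 73.1% of domain regions above the list median, 91.7% of replicate 2 shared on 3L, and 5 and 3 combined regions in neither library. Overlap of 50% of both regions gave shared percentages of 69.0% and 74.4% for replicate 1 and 50.6% and 53.2% for replicate 2. The proximal 2 Mb were covered over 51.4% and 71.5%, with 73.0%, 9.45% and 32.3% on 2R, 3R and X. Joining over 10 kb gave domains of 0.209 Mb and 0.711 Mb, and over 100 kb means of 1.54 Mb and 1.76 Mb. At 100 kb the order was reversed in replicate 2 but not in replicate 1. The 2L chain of replicate 2 reached beyond 1975 kb from the end, up to the uncovered stretch that ends at 21034625. Its 3L chain stopped within 1875 kb. Joining over 100 kb was not run on the combined list, but its 25 kb windows give the reversed order too. There the 2L chain reaches beyond 2075 kb, and the 3L chain stops within 2075 kb. Joining over 50 kb gave 1.06 Mb, a step of 24.5 points and 58.1% of domain regions above the list median on 2L. Flanks of 50 kb gave steps of 18.1 and 21.5 points. The 100 kb window rule gave 1.0 Mb and 1.6 Mb; windows of 50 kb gave 0.425 Mb and 1.55 Mb, windows of 25 kb 0 Mb and 0.938 Mb, and a threshold of 25% gave 1.65 Mb on 3L. Windows of 25 kb fail on 2L because the last 24.4 kb are uncovered. The means with smaller windows hide a spread between the libraries. With 50 kb windows the 2L domain ran to 850 kb in replicate 1, but replicate 2 failed at the first window. With 25 kb windows the 3L domain ran to 1550 kb in replicate 1 and to 325 kb in replicate 2. Minimum gaps of 2 kb gave 26 and 42 gaps and of 10 kb 3 and 4.5 on average. A minimum of 5 kb gave 7 and 3 islands. With either library left out 2L had 5 islands, and 3L had between 0 and 1. For measures taken per library, leaving 1 out gives the value of the other and says nothing about stability. The cause of the other shifts was not tested. Unknown depth limits what an uncovered stretch shows. No paired analysis was possible because region lists exist for ChIP only, and the inputs with the same replicate numbers carry no values.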

Other observations

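Longer members tended to score higher within each list. Over the 129 and 176 members of 2L in replicates 1 and 2, Spearman's rho between length and score was 0.794 and 0.709, and over the 90 and 126 members of 3L it was 0.547 and 0.628. These are descriptions across regions of a library, which share its reads and its calling. Inside the domain alone rho was 0.864 and 0.622 on 2L and 0.384 and 0.524 on 3L. Where regions of the libraries overlapped, their scores ranked alike, with a rho of 0.921 over 108 pairs on 2L and 0.928 over 78 pairs on 3L.

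The regions that set the combined list's borders were in neither replicate. On 2L the border region, 1257 bp from 21876880 to 21878136, was covered over 0% by both replicates. On 3L the border region of the combined list, 2097 bp from 22845626 to 22847722, was likewise covered over 0% by both.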
